A study of Citrullus lanatus with 36 samples.

Results

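Flesh of CmNOR/Cmnor fruits at 39 days after pollination (DAP) was compared with flesh of WT fruits at 36 DAP. The comparison takes 6 of the 36 libraries, 3 of each group, and 24901 of the 25121 genes in the expression table, since 220 genes were at 0 in every library. It asks which genes of the heterozygote stood where WT had stood 3 days before, as a ripening delay of that length would leave them, and which did not. The study itself reported a longer delay, of about 6 days. At that length the counterpart of CmNOR/Cmnor at 39 DAP is WT at 33 DAP. Of the genes that changed in WT between 36 and 39 DAP, 24.7% were placed at the WT 36 DAP level in CmNOR/Cmnor at 39 DAP, 18.5% at the WT 39 DAP level, and the others at neither.

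CmNOR/Cmnor plants were the F1 of Cmnor and WT, with an edited and an intact copy of CmNOR. Cmnor is a single CRISPR/Cas9 line that lacks a stretch of the NAC domain, and its parent BY9H, an oriental melon, served as WT. The 36 libraries hold the 3 genotypes at 3 ripening stages (33, 36 and 39 DAP) and once stored for 6 d, with 3 libraries in each of 12 groups. The labels do not say whether the libraries of a group came from separate fruits, so that the p-values measure the spread between these libraries. The labels name watermelon (Citrullus lanatus) as the organism, whereas the gene identifiers, the annotation and the study are of melon (Cucumis melo). The sources used here do not give the identifier of CmNOR, and its level is not shown.

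NOR is a NAC transcription factor named after the tomato mutant whose fruits do not ripen. Oriental melon is a climacteric fruit, in which ethylene made by ACC synthase and ACC oxidase drives softening, aroma and part of the colour change, through ethylene-responsive transcription factors (ERFs) among others. Orange flesh comes from β-carotene, softening from enzymes that loosen pectin and hemicellulose, and sweetness from sucrose held in the vacuole.

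Levels are FPKM, fragments scaled by transcript length and by the mapped reads of a library, as deposited by the authors. The depth was 25.5, 28.8 and 28.6 M fragments in the CmNOR/Cmnor 39 DAP libraries and 24, 17.7 and 25 M in the WT 36 DAP libraries, against a median of 30.5 M over the series. In these 6 libraries 1 fragment on a transcript of 1 kb was worth 0.0347 to 0.0565 FPKM, and differences of that size are not detectable. Log2 fold changes were taken on FPKM + 1, which makes those of low genes look smaller, and were tested with limma over all genes. A differentially expressed gene (DEG) changed at least 2-fold on that scale with an adjusted p below 0.05.

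CmNOR/Cmnor at 39 DAP and WT at 36 DAP differed in 733 DEGs, 2.94% of the genes tested. Of these, 261 (1.05%) were higher and 472 (1.9%) were lower in CmNOR/Cmnor. Without CmNOR/Cmnor library 3, the number of higher genes was 402. By the adjusted p alone, 2773 genes (11.1%) were higher and 2708 (10.9%) lower, with a median log2 fold change of 0.03 over the 15407 genes that averaged 1 FPKM or more. The 95% confidence interval lay within 2-fold for 86% of those 15407 genes. The same CmNOR/Cmnor libraries had 850 DEGs (3.41%) against WT at 39 DAP and 1048 (4.21%) against WT at 33 DAP. Within 2-fold of WT at 39 DAP were 85.9% of the 15407 genes, and within 2-fold of WT at 33 DAP 84%. These 3 comparisons share the CmNOR/Cmnor libraries, and the differences between their counts were not tested.

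Between 36 and 39 DAP, WT itself changed 1028 genes (4.13%), of which 651 rose and 377 fell. In CmNOR/Cmnor at 39 DAP, 254 of these genes were at the WT 36 DAP level, which means a DEG against WT at 39 DAP and an interval within 2-fold of WT at 36 DAP. The reverse held for 190 genes, which were at the WT 39 DAP level. That count was 98 when the WT change was taken from 33 to 39 DAP, 80 with an interval within 1.5-fold and 288 with a pseudocount of 0.1, and the count at the WT 36 DAP level was 281, 117 and 384 under these settings. The remaining 584 (56.8%) met neither definition. Of these, 171 lay between WT at 36 DAP and WT at 39 DAP and differed from both by the adjusted p. A further 31 lay beyond WT at 39 DAP and 28 beyond WT at 36 DAP, and 354 could not be placed in this way. Risers and fallers follow apart. Of the 651 risers, 188 (28.9%) were at the WT 36 DAP level and 78 (12%) at the WT 39 DAP level. Of the 377 fallers, 66 (17.5%) were at the WT 36 DAP level and 112 (29.7%) at the WT 39 DAP level. The median riser was 0.52 above WT at 36 DAP in CmNOR/Cmnor, against 1.27 in WT at 39 DAP, on the log2 scale. The median faller was at −0.84 in CmNOR/Cmnor, against −1.31 in WT at 39 DAP. These shares describe the genes and carry no test, since the definitions and the WT change share the WT libraries.

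**Figure D1:**
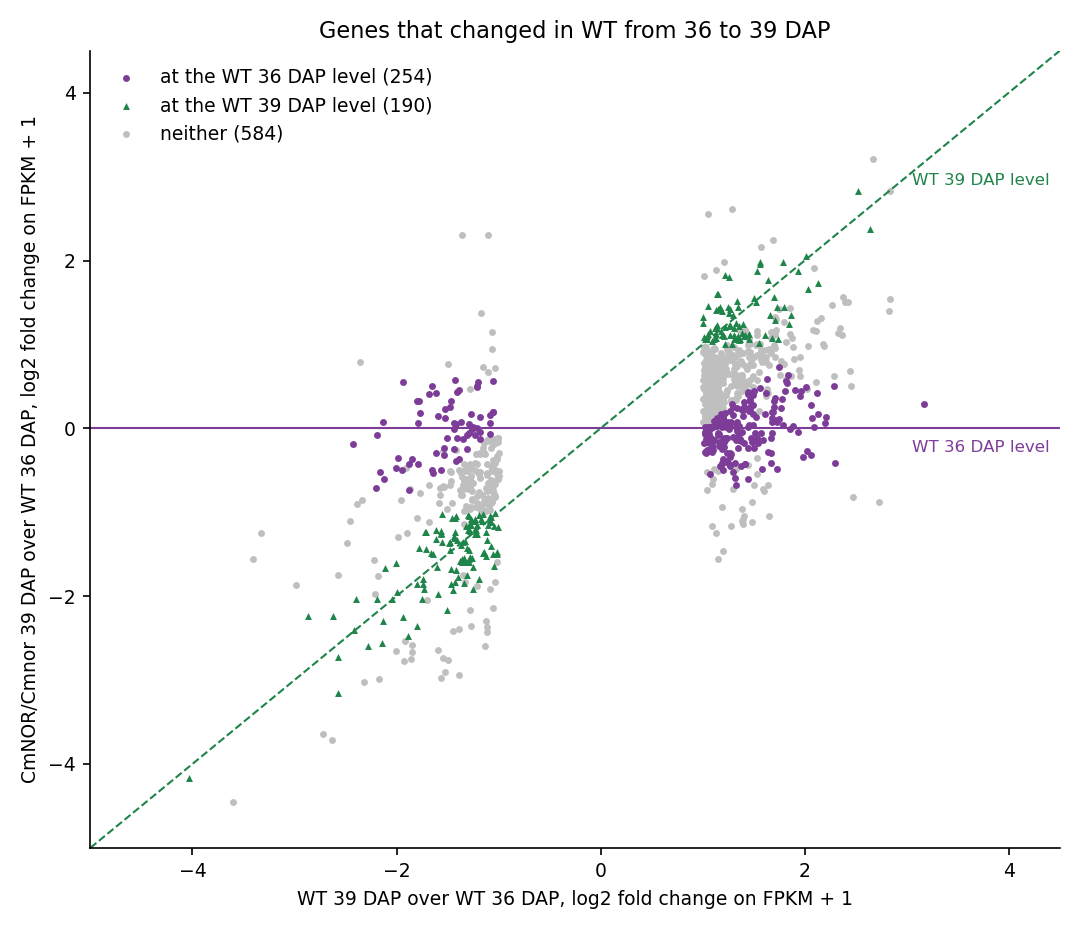
Log2 fold change of CmNOR/Cmnor at 39 DAP over WT at 36 DAP (vertical axis) against that of WT at 39 DAP over WT at 36 DAP (horizontal axis), on FPKM + 1, for the 1028 genes that changed in WT. Circles in purple (254) lie near the horizontal WT 36 DAP line, triangles (190) near the dashed WT 39 DAP line, and grey points (584) meet neither definition.

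Among the 188 risers at the WT 36 DAP level, 4 with a described product are given here. The NRT1/PTR FAMILY 7.3-like gene (MELO3C006241.2, chromosome 6), of a family of nitrate and peptide transporters, had 15.6, 12.7 and 14.8 FPKM in CmNOR/Cmnor at 39 DAP, against 13.9, 11.7 and 15.9 FPKM in WT at 36 DAP. The groups overlapped, and the log2 fold change was 0.06 with an interval of −0.25 to 0.36. WT at 39 DAP had reached 67.3 ± 11.9 FPKM (SD, n = 3), and CmNOR/Cmnor of the same age was lower by 2.14 (adjusted p = 2.3e-11). SPX domain-containing protein 1 (MELO3C010343.2), a sensor of phosphate status in Arabidopsis, had 2.24, 1.35 and 1.36 FPKM in CmNOR/Cmnor at 39 DAP, against 2.18, 2.69 and 2.55 FPKM in WT at 36 DAP. These groups overlapped too (log2 fold change −0.41, interval −0.92 to 0.11), while WT at 39 DAP was at 17.1 ± 6.65 FPKM. The LOB domain-containing protein 41-like gene (MELO3C017305.2), a transcription factor gene, had 44, 35.1 and 45.1 FPKM in CmNOR/Cmnor at 39 DAP, against 40.6, 31.5 and 37.5 FPKM in WT at 36 DAP. It overlapped between these groups, against 162 ± 9.69 FPKM in WT at 39 DAP. The FAH gene of the study (MELO3C006254.2, annotated ECERIFERUM 1-like, a wax synthesis gene in Arabidopsis) averaged 2 ± 0.683 FPKM in CmNOR/Cmnor at 39 DAP and 3.14 ± 2.54 FPKM in WT at 36 DAP, against 14.4 ± 1.3 FPKM in WT at 39 DAP.

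Among the 66 WT fallers at the WT 36 DAP level in CmNOR/Cmnor were a transporter gene and a pectin-cutting enzyme. ABC transporter B family member 19 (MELO3C021982.2, chromosome 9), an auxin carrier in Arabidopsis, had 12.6, 10.4 and 11.3 FPKM in CmNOR/Cmnor at 39 DAP, against 11.8, 10.4 and 14.5 FPKM in WT at 36 DAP. The groups overlapped (log2 fold change −0.08, interval −0.30 to 0.13), and CmNOR/Cmnor was higher than WT of the same age, 1.88 ± 0.132 FPKM, by 2.11 (adjusted p = 4.4e-14). The polygalacturonase gene PG1 of the study (MELO3C015128.2, chromosome 2), whose enzyme cuts pectin, had 167, 174 and 182 FPKM in CmNOR/Cmnor at 39 DAP, against 133, 162 and 123 FPKM in WT at 36 DAP. The CmNOR/Cmnor libraries were all above those of WT, yet the difference of 0.33 did not pass the test (adjusted p = 0.38, interval −0.14 to 0.80). WT at 39 DAP was at 39.2 ± 4.99 FPKM. Acyl-activating enzyme 5 (MELO3C025110.2) had 52.2, 68.8 and 80.4 FPKM in CmNOR/Cmnor at 39 DAP, against 60.7, 64.3 and 64.3 FPKM in WT at 36 DAP and a mean of 13.6 FPKM in WT at 39 DAP. Being placed at the WT 36 DAP level does not mean that a gene had taken the same course. SPX domain-containing protein 1 averaged 8.26, 6.01 and 1.65 FPKM at 33, 36 and 39 DAP in CmNOR/Cmnor, and 3.61, 2.48 and 17.1 FPKM at these stages in WT. The NRT1/PTR FAMILY 6.4 gene (MELO3C019310.2) averaged 47.6, 30 and 8.34 FPKM at 33, 36 and 39 DAP in CmNOR/Cmnor, against 13.9, 13.1 and 2.26 FPKM in WT. By a test against WT at 36 DAP it was lower by 0.61 in CmNOR/Cmnor (adjusted p = 0.0013), although within 2-fold.

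A faller was defined from WT at 36 and 39 DAP alone, so a passing high in WT at 36 DAP also counts as one. Of all 377 fallers, 13 were heat shock protein genes and 10 were ERFs. The numbers were 6 and 3 of the 112 at the WT 39 DAP level in CmNOR/Cmnor. Of the 66 at the WT 36 DAP level, they were 0 and 1. With the WT change taken from the first stage to 39 DAP, the WT 39 DAP level held 98 genes, risers included, against 190. How many of the 112 are such highs was not tested. Among these 112, 5 with a described product follow. The transcription factor gene MYC2-like (MELO3C013851.2, chromosome 6), of the jasmonate response, had 12, 13.1 and 12.9 FPKM in CmNOR/Cmnor at 39 DAP, against 121, 104 and 138 FPKM in WT at 36 DAP. The groups were far apart, 9.55-fold lower in CmNOR/Cmnor (log2 fold change −3.15, adjusted p = 1.5e-12), and WT at 39 DAP was at 19.5 ± 1.68 FPKM. ZAT10 (MELO3C016809.2), a zinc finger gene of stress responses in Arabidopsis, had 158, 182 and 196 FPKM in CmNOR/Cmnor at 39 DAP, against 1066, 1123 and 1052 FPKM in WT at 36 DAP. That is 6.04-fold lower (adjusted p = 5.5e-11), with 221 ± 9.23 FPKM in WT at 39 DAP. The NCED3-like gene MELO3C027057.2, for a 9-cis-epoxycarotenoid dioxygenase of abscisic acid synthesis, had 163, 202 and 218 FPKM in CmNOR/Cmnor at 39 DAP, against 500, 611 and 399 FPKM in WT at 36 DAP. It did not overlap between them (log2 fold change −1.36, adjusted p = 3.3e-05), and WT at 39 DAP averaged 179 ± 32.1 FPKM. Aquaporin PIP1-1 (MELO3C025164.2), a water channel of the plasma membrane, had 110, 110 and 104 FPKM in CmNOR/Cmnor at 39 DAP, against 356, 386 and 420 FPKM in WT at 36 DAP. It was lower by 1.83 on the log2 scale (adjusted p = 4.5e-10), near the 144 ± 27.2 FPKM of WT at 39 DAP. AFG1-like ATPase (MELO3C035594.2) was at 0.21, 0 and 0.225 FPKM in CmNOR/Cmnor at 39 DAP, values of a few fragments, against 19.3, 17.3 and 22.2 FPKM in WT at 36 DAP and a mean of 0.252 FPKM in WT at 39 DAP.

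Of the 78 risers at the WT 39 DAP level, 3 with a described product follow. Cellulose synthase-like protein G3 (MELO3C016268.2, chromosome 7), of the cellulose synthase superfamily, had 79.2, 50.8 and 53 FPKM in CmNOR/Cmnor at 39 DAP, against 7.85, 7.15 and 7.61 FPKM in WT at 36 DAP. CmNOR/Cmnor was 8.1-fold higher with no overlap (log2 fold change 2.83, adjusted p = 1.6e-13), and WT at 39 DAP was at 48.6 ± 8.85 FPKM. The metal-nicotianamine transporter gene YSL7 (MELO3C008139.2) had 271, 236 and 253 FPKM in CmNOR/Cmnor at 39 DAP, against 65.6, 67.6 and 71.2 FPKM in WT at 36 DAP. It was 3.72-fold higher (adjusted p = 1.2e-09), next to 199 ± 8.2 FPKM in WT at 39 DAP. The auxin-responsive gene SAUR36 (MELO3C022337.2), linked to leaf senescence in Arabidopsis, averaged 61.4 ± 4.56 FPKM in CmNOR/Cmnor at 39 DAP and 29.7 ± 4.96 FPKM in WT at 36 DAP, against 64.2 ± 8.38 FPKM in WT at 39 DAP.

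**Figure D2:**
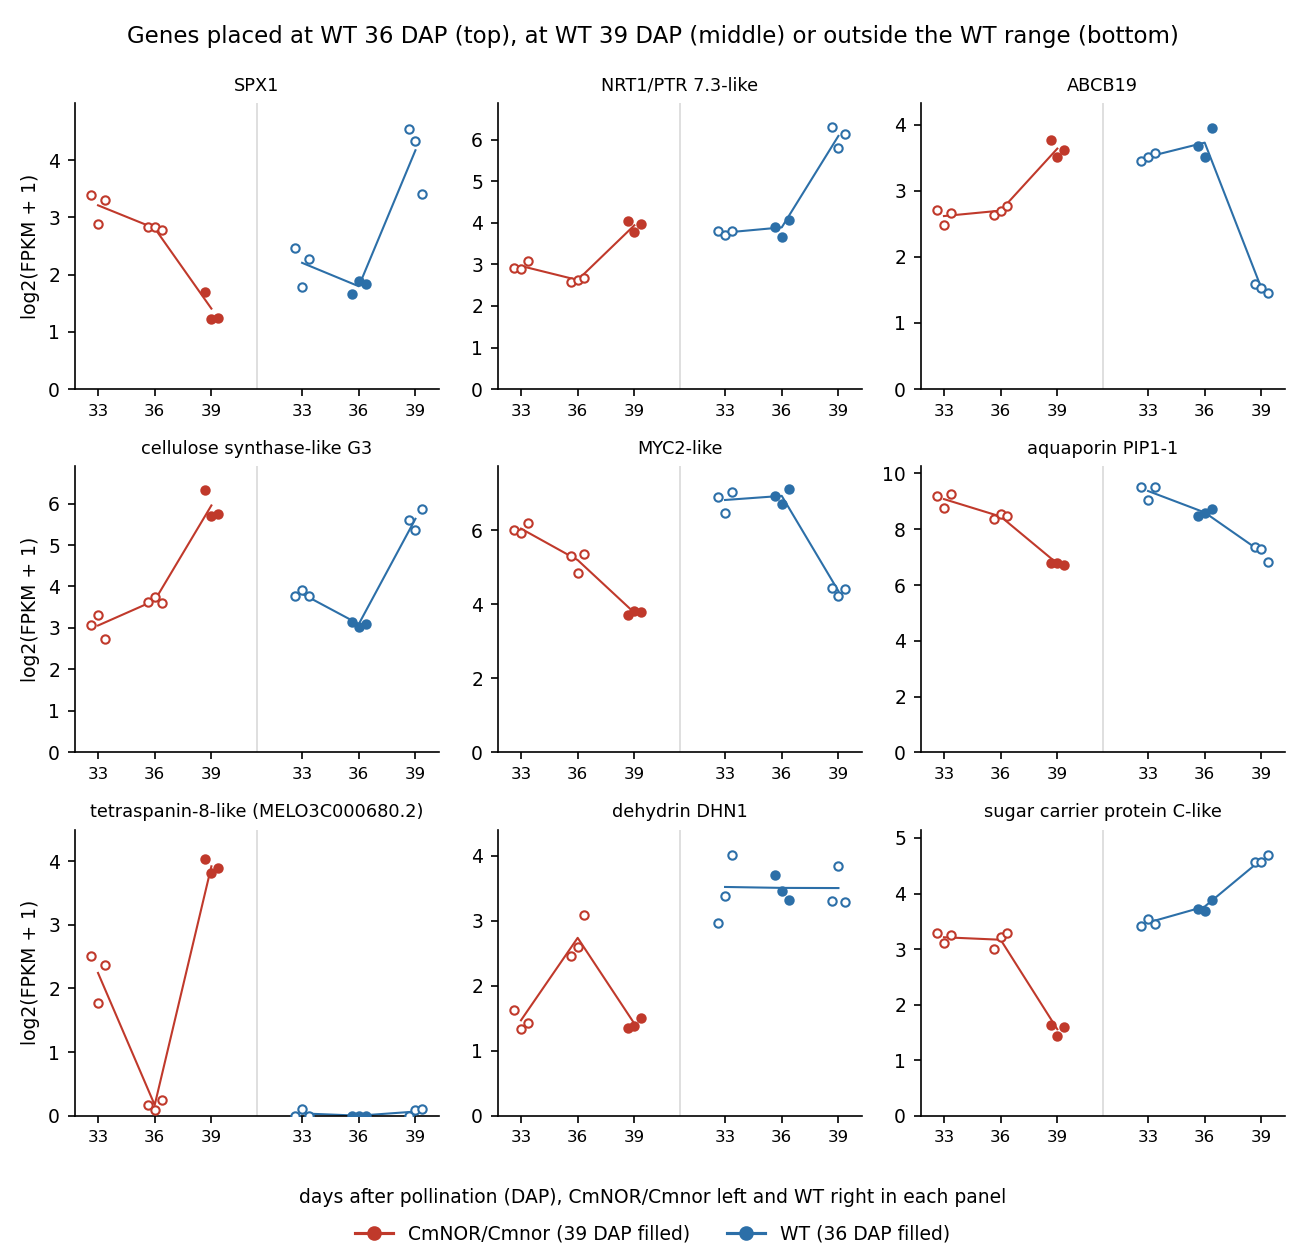
Log2(FPKM + 1) of 9 genes at 33, 36 and 39 DAP in CmNOR/Cmnor (red, left of each panel) and WT (blue, right), 1 point per library, with lines through the log2 of the group mean + 1 and filled points for the 2 groups compared. The top row is at the WT 36 DAP level, the middle row at the WT 39 DAP level, and the bottom row outside the range of WT, where DHN1 averaged 1.67 FPKM in CmNOR/Cmnor at 39 DAP and 10.4 FPKM in WT at 36 DAP.

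For 96 genes the level in CmNOR/Cmnor at 39 DAP was reached by WT at none of the 3 stages, 28 (0.112% of genes tested) above and 68 (0.273%) below. A shift among these stages cannot place them. The dehydrin gene DHN1 (MELO3C016401.2, chromosome 7, 24180093 to 24180395), for a protein made under water loss, had 1.55, 1.61 and 1.85 FPKM in CmNOR/Cmnor at 39 DAP, against 12.1, 10 and 8.98 FPKM in WT at 36 DAP. It was 6.21-fold lower with no overlap (log2 fold change −2.08, adjusted p = 8.6e-07), while WT averaged 10.5 FPKM at 33 DAP and 10.4 FPKM at 39 DAP. The sugar carrier protein C-like gene (MELO3C007325.2, chromosome 8) had 2.11, 1.7 and 2.01 FPKM in CmNOR/Cmnor at 39 DAP, against 12.2, 11.8 and 13.8 FPKM in WT at 36 DAP. It was 6.51-fold lower (adjusted p = 1.5e-13), and in WT it averaged 10.1 FPKM at 33 DAP and 23.5 FPKM at 39 DAP. The NAC domain-containing protein 83-like gene (MELO3C017754.2), of the family of NOR, had 61, 55.9 and 45.7 FPKM in CmNOR/Cmnor at 39 DAP, against 124, 189 and 134 FPKM in WT at 36 DAP. It did not overlap (log2 fold change −1.43, adjusted p = 4.0e-06), and WT held 158 FPKM at 33 DAP and 162 FPKM at 39 DAP. Galactomannan galactosyltransferase 1-like (MELO3C007647.2) averaged 0.408 ± 0.117 FPKM in CmNOR/Cmnor at 39 DAP and 8.02 ± 0.865 FPKM in WT at 36 DAP. Glucan endo-1,3-beta-glucosidase (MELO3C023847.2), which cuts callose, averaged 2.73 ± 0.396 FPKM in CmNOR/Cmnor at 39 DAP and 14.4 ± 0.281 FPKM in WT at 36 DAP. Both were lower than WT at each of the 3 stages.

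On the high side, 2 tetraspanin-8-like genes on chromosome 0 stood out, members of a family of membrane proteins. MELO3C000680.2 had 15.4, 13.1 and 13.8 FPKM and MELO3C027800.2 5.99, 7.68 and 3.99 FPKM in CmNOR/Cmnor at 39 DAP, while both were listed at 0 in all 3 WT 36 DAP libraries. Their annotated spans, 17131114 to 17131692 and 17131523 to 17139482 on the plus strand, overlap, so that fragments may be split or counted for both. The first averaged 3.73 FPKM at 33 DAP and 0.123 FPKM at 36 DAP in CmNOR/Cmnor, and below 0.1 FPKM at each ripening stage of WT. Cationic amino acid transporter 6 (MELO3C019906.2) had 10.1, 9.1 and 9.28 FPKM in CmNOR/Cmnor at 39 DAP, against 1.64, 1.65 and 1.88 FPKM in WT at 36 DAP. It was 5.49-fold higher with no overlap (log2 fold change 1.94, adjusted p = 8.2e-11). The pectinesterase/pectinesterase inhibitor 41 gene (MELO3C002316.2) had 39.4, 41 and 45.4 FPKM in CmNOR/Cmnor at 39 DAP, against 10.9, 11.2 and 8.75 FPKM in WT at 36 DAP. It was 4.07-fold higher (adjusted p = 4.5e-10), with 14.2 FPKM in WT at 39 DAP.

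Stored fruits gave these genes a reading in libraries that had not chosen them. Between CmNOR/Cmnor and WT after 6 d of storage, 338 genes (1.36%) were DEGs, 113 (0.454%) higher and 225 (0.904%) lower in CmNOR/Cmnor. Of the 28 genes above the WT range, 7 were DEGs in the same direction after storage and 1 in the other. Of the 68 below it, 18 (26.5%) were again lower and 0 higher by limma, with 47 lower and 1 higher at an unadjusted p under 0.05. NAC83-like was lower by 1.87 after storage (adjusted p = 1.9e-07), DHN1 by 1.24 (adjusted p = 0.0019), and glucan endo-1,3-beta-glucosidase by 1.63 (adjusted p = 5.7e-04). The pectinesterase inhibitor 41 gene was higher by 2.12 (adjusted p = 2.1e-10). For the sugar carrier protein C-like gene the difference after storage was −0.27 (adjusted p = 0.14), and for the tetraspanin MELO3C000680.2 it was 0.00. The storage comparison was chosen after the ripening data were seen.

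Among the DEGs with the most negative log2 fold changes were ERF genes, beside the AFG1-like ATPase above and a class I heat shock protein-like gene given with its family. The study's ERF2 (MELO3C002624.2, annotated ethylene-responsive transcription factor 8, chromosome 12, 22659740 to 22660932) had 1.97, 3.44 and 2.26 FPKM in CmNOR/Cmnor at 39 DAP, against 76.3, 73.5 and 77.6 FPKM in WT at 36 DAP. It was 29.7-fold lower (log2 fold change −4.45, interval −5.02 to −3.89, adjusted p = 5.4e-12). At the stages around that peak it averaged 10.3 FPKM at 33 DAP and 5.41 FPKM at 39 DAP in WT, and in CmNOR/Cmnor 4.59, 14.7 and 2.56 FPKM at 33, 36 and 39 DAP. Ethylene-responsive transcription factor 4 (MELO3C025608.2) had 6.66, 6.38 and 7.53 FPKM in CmNOR/Cmnor at 39 DAP, against 98.2, 93.3 and 98.9 FPKM in WT at 36 DAP. This was a 14.1-fold difference with no overlap (adjusted p = 2.0e-12). The calcium-binding protein gene CML30 (MELO3C021998.2) averaged 10.4 ± 1.08 FPKM in CmNOR/Cmnor at 39 DAP and 91.1 ± 10.8 FPKM in WT at 36 DAP. The protein phosphatase 2C 25 gene (MELO3C020536.2) had 24.2, 26.7 and 26 FPKM in CmNOR/Cmnor at 39 DAP, against 212, 197 and 221 FPKM in WT at 36 DAP (8.19-fold lower, adjusted p = 1.5e-13). Glutaredoxin-C9 (MELO3C007253.2) and the BON1-associated protein 2-like gene (MELO3C006139.2) were lower by 2.98 (adjusted p = 1.4e-10) and 2.9 (adjusted p = 8.3e-08), and both lay below WT at 33 and 39 DAP as well.

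A sulfur assimilation gene, a lipase and a vesicle traffic gene were among the highest of the higher genes. ATP sulfurylase 1 (MELO3C006493.2, chromosome 6, 3644566 to 3647611), the entry enzyme of sulfate assimilation, had 37.7, 41.2 and 56.9 FPKM in CmNOR/Cmnor at 39 DAP, against 9.27, 9.09 and 6.64 FPKM in WT at 36 DAP. It was 5.43-fold higher (log2 fold change 2.30, adjusted p = 8.5e-11), and by 2.61 after storage (adjusted p = 2.2e-11). At 36 DAP in CmNOR/Cmnor, however, it averaged 20 FPKM, against 77.1 FPKM in WT at 33 DAP. The GDSL esterase/lipase 1-like gene (MELO3C030868.2) had 128, 45.6 and 34.2 FPKM in CmNOR/Cmnor at 39 DAP, against 9.22, 4.28 and 9.83 FPKM in WT at 36 DAP. The CmNOR/Cmnor libraries differed widely but did not overlap WT (log2 fold change 2.83, interval 1.72 to 3.95, adjusted p = 2.8e-04). The PRA1 family protein B2 gene (MELO3C026026.2), for a protein of vesicle traffic, had 29.6, 21.3 and 30.8 FPKM in CmNOR/Cmnor at 39 DAP, against 4.03, 2.91 and 3.83 FPKM in WT at 36 DAP (7.58-fold higher, adjusted p = 4.7e-09).

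**Figure D3:**
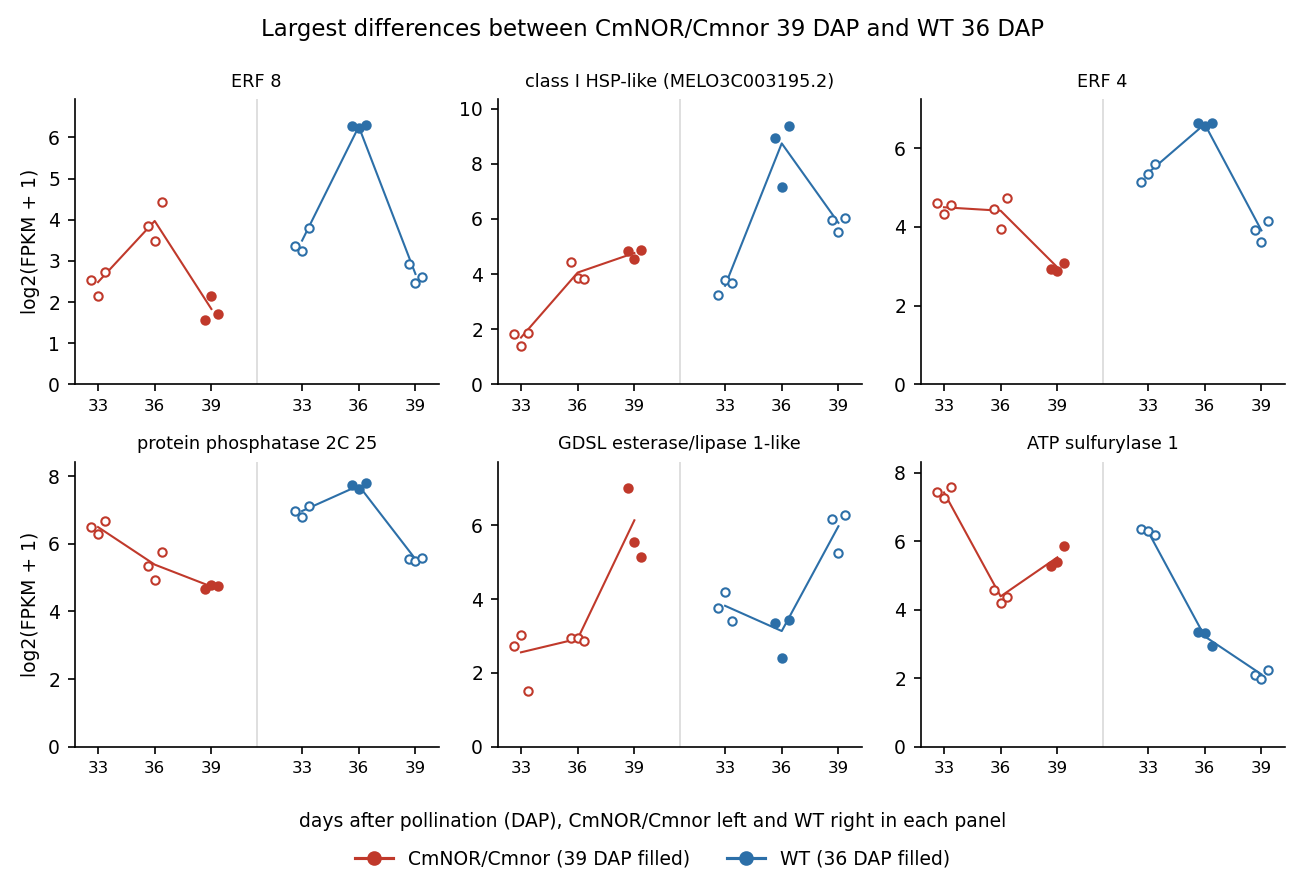
Log2(FPKM + 1) of 6 of the genes with the largest differences, ERF2 (drawn as ERF 8), the class I heat shock gene MELO3C003195.2, ERF4, protein phosphatase 2C 25, the GDSL lipase and ATP sulfurylase 1, at 33, 36 and 39 DAP in CmNOR/Cmnor (red, left) and WT (blue, right), 1 point per library with lines through the group means. The 3 WT 36 DAP points of ERF2 lie at 73.5 to 77.6 FPKM and the 3 CmNOR/Cmnor 39 DAP points at 1.97 to 3.44 FPKM.

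Among the genes of ethylene synthesis, 3 of 14 ACC synthase and ACC oxidase genes were lower in CmNOR/Cmnor at 39 DAP and 0 higher by limma, with 4 lower and 1 higher at an unadjusted p under 0.05, beside 10.9% lower and 11.1% higher over all genes. The summed level of the 14 went the other way. It was 11873, 9902 and 10655 FPKM in CmNOR/Cmnor at 39 DAP, against 7788, 9074 and 7782 FPKM in WT at 36 DAP, without overlap. WT at 39 DAP averaged 10201 FPKM. The 2 lower genes that follow make up a small part of these sums. An ACC oxidase gene (MELO3C026792.2, chromosome 10), of the last step to ethylene, had 52.2, 63.8 and 60.9 FPKM in CmNOR/Cmnor at 39 DAP, against 108, 120 and 102 FPKM in WT at 36 DAP. The difference of −0.89 passed the test (adjusted p = 4.8e-06) with no overlap. An ACC synthase gene (MELO3C021182.2, chromosome 11) had 30.2, 29.7 and 34.6 FPKM in CmNOR/Cmnor at 39 DAP, against 87.7, 64.1 and 89.5 FPKM in WT at 36 DAP (log2 fold change −1.31, adjusted p = 0.0018). Its course differed between the genotypes, with 643, 16.3 and 31.5 FPKM at 33, 36 and 39 DAP in CmNOR/Cmnor, against 368, 80.4 and 136 FPKM in WT. None of the 11 ethylene receptor and EIN3-type genes passed the adjusted p in limma, and 1 was lower and 0 were higher at an unadjusted p under 0.05. All 11 had intervals within 2-fold, as did 90.4% of all genes tested.

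Of 109 ERFs tested, 24 were lower and 6 higher by the adjusted p, with a median log2 fold change of −0.02, beside 10.9% lower and 11.1% higher over all genes and a median of 0.00. Their summed level was 1823, 1816 and 1835 FPKM in CmNOR/Cmnor at 39 DAP, against 2861, 2871 and 3009 FPKM in WT at 36 DAP, which was the highest of the 3 WT ripening stages. The exceptions included the study's ERF1 (MELO3C021306.2, annotated RAP2-3-like), a gene of low-oxygen responses in Arabidopsis. It had 380, 331 and 345 FPKM in CmNOR/Cmnor at 39 DAP, against 192, 175 and 249 FPKM in WT at 36 DAP (log2 fold change 0.79, adjusted p = 1.8e-04), and lay between WT at 36 DAP and WT at 39 DAP, 530 ± 53.2 FPKM. Lower ERFs also outnumbered higher ones where WT at 36 DAP was not used. In CmNOR/Cmnor at 36 DAP against WT at 33 DAP, 24 were lower and 9 higher, beside 9.44% and 11.8% over all genes. For CmNOR/Cmnor at 39 DAP against WT at 39 DAP, 23 were lower and 9 higher, beside 3588 and 2041 of all 24901 genes. Of 62 NAC genes, 8 were higher and 7 lower. The NAC92-like gene (MELO3C022002.2) had 16.2, 13.7 and 14.3 FPKM in CmNOR/Cmnor at 39 DAP, against 5.53, 4.76 and 4.35 FPKM in WT at 36 DAP (log2 fold change 1.42, adjusted p = 2.3e-10), and exceeded the 9.95 ± 0.534 FPKM of WT at 39 DAP. Of 41 MADS-box genes 4 were higher and 0 lower by limma, with 6 higher and 1 lower at an unadjusted p under 0.05. MADS-box protein 5 (MELO3C022316.2) averaged 46.5 ± 14.6 FPKM in CmNOR/Cmnor at 39 DAP and 21.4 ± 9.19 FPKM in WT at 36 DAP. Its call (adjusted p = 0.0073) was lost without CmNOR/Cmnor library 1, at a difference of 0.90, or without WT library 2, at 0.76.

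Of the carotenoid genes, PSY1 and PDS did not pass the test, and PSY2 and genes of later steps were lower. PSY1 (MELO3C025102.2, chromosome 9), the phytoene synthase of highest level, had 191, 222 and 218 FPKM in CmNOR/Cmnor at 39 DAP, against 185, 217 and 175 FPKM in WT at 36 DAP. The groups overlapped and the interval of −0.04 to 0.30 lay within 2-fold (adjusted p = 0.33). PDS (MELO3C017772.2), of the next step, was also within that range, at 286 ± 25.1 FPKM in CmNOR/Cmnor and 285 ± 11.7 FPKM in WT at 36 DAP (interval −0.22 to 0.23). PSY2 (MELO3C014677.2) had 9.99, 13.2 and 10.2 FPKM in CmNOR/Cmnor at 39 DAP, against 23, 21.5 and 15.2 FPKM in WT at 36 DAP (log2 fold change −0.78, adjusted p = 3.6e-04), and lost the call with a pseudocount of 0.1. ZDS (MELO3C024674.2), the zeta-carotene desaturase, was lower by 0.56, at 97.2 ± 8.98 FPKM in CmNOR/Cmnor and 143 ± 4.53 FPKM in WT at 36 DAP (adjusted p = 5.0e-06). The cyclases that use lycopene were lower too. LCYE (MELO3C004633.2, chromosome 5), of the branch to α-carotene, had 0.727, 1.61 and 1.5 FPKM in CmNOR/Cmnor at 39 DAP, against 4.25, 5.74 and 4.22 FPKM in WT at 36 DAP (log2 fold change −1.34, adjusted p = 6.5e-07). LCYB (MELO3C020744.2), of the branch to β-carotene, was lower by 0.37, at 15.2 ± 1.39 FPKM in CmNOR/Cmnor and 19.9 ± 0.237 FPKM in WT at 36 DAP (adjusted p = 0.0017). ZISO (MELO3C017709.2), the isomerase between the desaturases, had 25.3, 27.4 and 28.1 FPKM in CmNOR/Cmnor, against 29.3, 39.4 and 35 FPKM in WT at 36 DAP. Its difference of −0.34 (adjusted p = 0.027) lost the call under both other scalings and without WT library 2, at −0.24. So 5 of the 7 carotenoid genes that the study names were lower and 0 higher, also at an unadjusted p under 0.05 (limma), but the study named them on these samples, and they are not independent evidence. In WT itself the median log2 fold change of these 7 genes from 36 to 39 DAP was −0.28. Against WT at 39 DAP, 2 of the 7 were higher in CmNOR/Cmnor of that age and 2 lower, with a median of 0.15. Their summed level averaged 648 ± 38.5 FPKM in CmNOR/Cmnor at 39 DAP, 699 ± 27.4 FPKM in WT at 36 DAP and 565 ± 38.4 FPKM in WT at 39 DAP. Of 79 genes that the table assigns to the KEGG carotenoid pathway, 19 were lower and 8 higher than in WT at 36 DAP, beside 10.9% and 11.1% over all genes.

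Abscisic acid is made from carotenoids, and its genes went both ways, 3 of 16 higher and 4 lower, beside 11.1% and 10.9% over all genes. NCED6 (MELO3C023086.2) had 7.5, 10.1 and 10.8 FPKM in CmNOR/Cmnor at 39 DAP, against 2.49, 2.08 and 1.55 FPKM in WT at 36 DAP (log2 fold change 1.78, adjusted p = 3.6e-08). A further NCED3-like gene, MELO3C007127.2, averaged 50.8 ± 1.34 FPKM in CmNOR/Cmnor at 39 DAP and 30.2 ± 3.5 FPKM in WT at 36 DAP (log2 fold change 0.73, adjusted p = 2.3e-04). Both were higher in CmNOR/Cmnor at 39 DAP than in WT at 36 DAP, whereas the NCED3-like gene MELO3C027057.2 was lower. Xanthoxin dehydrogenase (MELO3C005129.2), of a step after NCED, averaged 0.411 ± 0.0843 FPKM in CmNOR/Cmnor at 39 DAP and 2.73 ± 0.114 FPKM in WT at 36 DAP (adjusted p = 3.8e-08).

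Sucrose can be made by sucrose-phosphate synthase and cleaved by sucrose synthase or invertase. Of 24 genes for these enzymes, 4 were higher in CmNOR/Cmnor at 39 DAP and 7 lower, beside 11.1% and 10.9% over all genes. The study's Susy gene (MELO3C025101.2, chromosome 9, sucrose synthase 5) had 45.7, 33.5 and 38.3 FPKM in CmNOR/Cmnor at 39 DAP, against 18.7, 17.9 and 14.5 FPKM in WT at 36 DAP. It was 2.29-fold higher with no overlap (log2 fold change 1.15, adjusted p = 1.7e-04), and in WT it averaged 35.9, 17.1 and 7.65 FPKM at 33, 36 and 39 DAP. The acid beta-fructofuranosidase-like gene (MELO3C005363.2, chromosome 9), an acid invertase, differed the other way, with 15.4, 24.5 and 19.6 FPKM in CmNOR/Cmnor at 39 DAP, against 112, 118 and 112 FPKM in WT at 36 DAP. It was 5.75-fold lower (log2 fold change −2.49, adjusted p = 1.8e-10), near the 24.9 FPKM of WT at 33 DAP. The cell wall invertase gene CWINV3-like (MELO3C010751.2) averaged 6.55 ± 1.25 FPKM in CmNOR/Cmnor at 39 DAP and 1.94 ± 0.148 FPKM in WT at 36 DAP (adjusted p = 4.4e-09), also near the WT 33 DAP level of 5.67 FPKM. Sucrose-phosphate synthase 2 (MELO3C020357.2) was lower, at 25.4 ± 1.86 FPKM in CmNOR/Cmnor and 40.3 ± 0.782 FPKM in WT at 36 DAP (log2 fold change −0.65, adjusted p = 6.2e-04). The hexokinase gene HK (MELO3C015169.2), with 45.4, 42 and 44 FPKM in CmNOR/Cmnor, against 43, 35.9 and 36.8 FPKM in WT at 36 DAP, did not pass the test (adjusted p = 0.059, interval 0.04 to 0.32), but passed without WT library 1, at 0.26.

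Of 48 sugar transporters 5 were higher and 4 lower, near the 11.1% and 10.9% over all genes. The SWEET12-like gene MELO3C002381.2, of a family of sugar exporters, had 110, 166 and 127 FPKM in CmNOR/Cmnor at 39 DAP, against 39.2, 46.3 and 34.9 FPKM in WT at 36 DAP (log2 fold change 1.71, adjusted p = 5.5e-06). A second SWEET12-like gene, MELO3C026183.2, had 8.32, 11 and 9.03 FPKM in CmNOR/Cmnor at 39 DAP, against 35.7, 46.5 and 20.6 FPKM in WT at 36 DAP (log2 fold change −1.69, adjusted p = 5.3e-06). These 2 genes of the same description thus differed in opposite directions. SWEET10-like MELO3C026184.2, next to the second on chromosome 2, had 27.5, 17.8 and 14 FPKM in CmNOR/Cmnor at 39 DAP, against 6.61, 2.45 and 9.32 FPKM in WT at 36 DAP. It lay above WT at all 3 stages (adjusted p = 1.0e-04), but the call was lost in a fit of the compared libraries alone. The study's tonoplast transporter VST1 (MELO3C013366.2) had 719, 681 and 680 FPKM in CmNOR/Cmnor at 39 DAP, against 511, 529 and 540 FPKM in WT at 36 DAP. The groups did not overlap, as for 14.9% of all genes on the higher side, yet the adjusted p was 0.083 (log2 fold change 0.40). It passed in a fit of the compared libraries alone and under upper-quartile scaling, at 0.43.

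**Figure D4:**
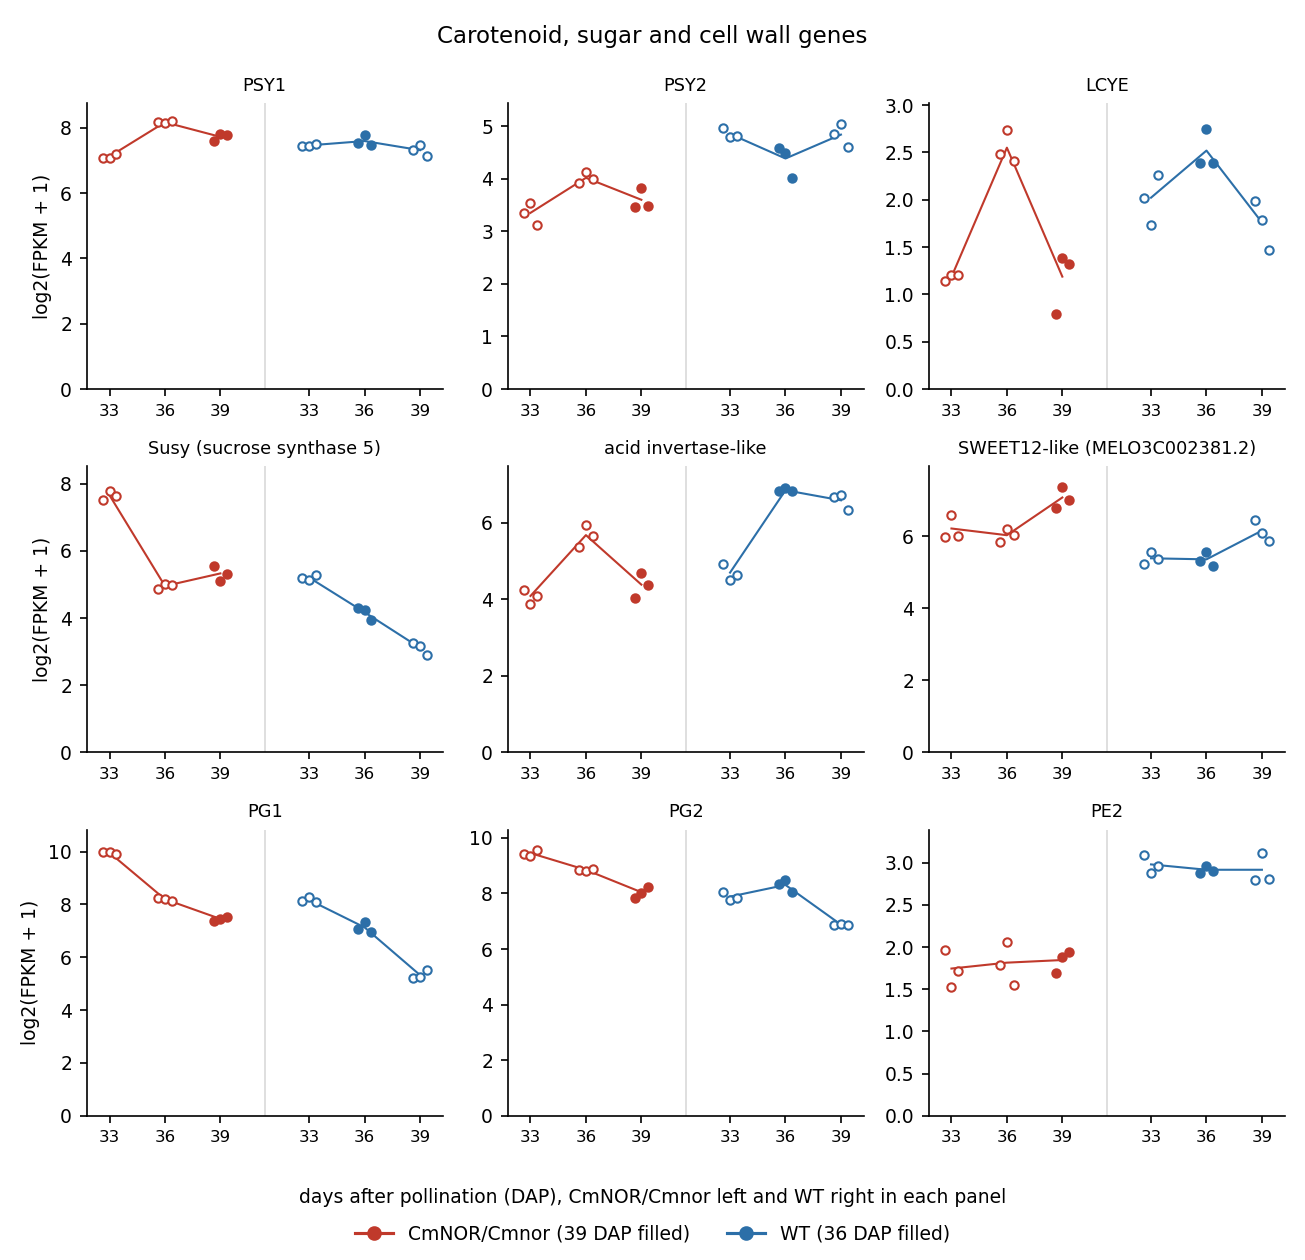
Log2(FPKM + 1) of carotenoid genes (PSY1, PSY2, LCYE; top), sugar genes (Susy, the acid invertase-like gene, SWEET12-like MELO3C002381.2; middle) and pectin genes (PG1, PG2, PE2; bottom) at 33, 36 and 39 DAP in CmNOR/Cmnor (red, left) and WT (blue, right), 1 point per library with lines through the group means. The filled points of PSY1 overlap, at 191 to 222 FPKM in CmNOR/Cmnor at 39 DAP and 175 to 217 FPKM in WT at 36 DAP, and those of the acid invertase-like gene do not.

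By the count of called members, cell wall genes were at or below the background as groups, which was 11.1% higher and 10.9% lower. Of 63 polygalacturonase and pectate lyase genes 5 were higher and 5 lower, and of 64 pectinesterase genes and inhibitors 4 and 4. The summed level of the first list overlapped between the groups. That of the second was 204, 206 and 214 FPKM in CmNOR/Cmnor at 39 DAP, against 283, 257 and 334 FPKM in WT at 36 DAP, without overlap. PG2 (MELO3C027277.2) had 227, 261 and 302 FPKM in CmNOR/Cmnor at 39 DAP, against 327, 357 and 263 FPKM in WT at 36 DAP. PG3 (MELO3C016494.2) had 133, 142 and 146 FPKM in CmNOR/Cmnor, against 168, 203 and 141 FPKM in WT at 36 DAP. Both overlapped, but their intervals (−1.02 to 0.51 and −1 to 0.46) allow up to a 2-fold lower level. They carry the same description, and counting may have split fragments between them. The pectinesterase 67 genes MELO3C031619.2 (PE1) and MELO3C031751.2 (PE2) lie side by side on chromosome 6, and the same limit holds for them. PE1 had 3.69, 3.49 and 3.55 FPKM in CmNOR/Cmnor at 39 DAP, against 10.5, 6.41 and 7.29 FPKM in WT at 36 DAP (log2 fold change −0.96, adjusted p = 1.2e-06). PE2 had 2.24, 2.7 and 2.85 FPKM in CmNOR/Cmnor, against 6.35, 6.81 and 6.51 FPKM in WT at 36 DAP (log2 fold change −1.07, adjusted p = 2.5e-05), below WT at all 3 stages, though not past the test with a pseudocount of 0.1. Both were also lower at the earlier offset and after storage, PE1 by 1.02 and 1.21, and PE2 by 1.18 and 0.98. The polygalacturonase 1 beta-like protein 3 gene (MELO3C010662.2), for a partner subunit, had 1.82, 2.35 and 2.22 FPKM in CmNOR/Cmnor at 39 DAP, against 13, 7.77 and 14.7 FPKM in WT at 36 DAP (5.57-fold lower, adjusted p = 2.3e-07).

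Among hemicellulose enzymes, 2 of 27 xyloglucan endotransglucosylase/hydrolase (XTH) genes were higher and 1 lower, and 1 of 30 expansins was higher and 3 lower. Of 67 wall glycosidases 3 were higher and 7 lower, beside 11.1% higher and 10.9% lower over all genes. Wall glycosidases summed to 1357, 1372 and 1453 FPKM in CmNOR/Cmnor at 39 DAP, against 2086, 2162 and 1937 FPKM in WT at 36 DAP. WT at 39 DAP averaged 1298 FPKM. Expansins summed lower too, at 33 ± 1.58 FPKM against 41.4 ± 1.38 FPKM in WT at 36 DAP. XTH genes summed higher, at 1416 ± 63.8 FPKM against 1171 ± 43.8 FPKM. The XTH30 gene (MELO3C003441.2) had 625, 597 and 664 FPKM in CmNOR/Cmnor at 39 DAP, against 340, 328 and 356 FPKM in WT at 36 DAP (log2 fold change 0.88, adjusted p = 7.6e-05). XTH32 (MELO3C009367.2) had 3.83, 5.6 and 5.63 FPKM in CmNOR/Cmnor at 39 DAP, against 29.6, 21 and 32.9 FPKM in WT at 36 DAP (5.54-fold lower, adjusted p = 1.5e-10). Both were close to WT at 39 DAP, where XTH30 averaged 566 FPKM and XTH32 6.5 FPKM. The beta-galactosidase-like gene MELO3C015469.2, which trims pectin side chains, averaged 11.7 ± 4.22 FPKM in CmNOR/Cmnor at 39 DAP and 32.4 ± 5.16 FPKM in WT at 36 DAP (adjusted p = 4.2e-04). Of the aroma genes, 0 of 4 alcohol acyltransferases passed in either direction, by the adjusted p in limma or at an unadjusted p under 0.05. Of 14 alcohol dehydrogenase and pyruvate decarboxylase genes 3 were lower and 0 higher, by limma at the adjusted p and at an unadjusted p under 0.05. Over all genes, 10.9% were lower and 11.1% higher by the adjusted p. Pyruvate decarboxylase (MELO3C007227.2) averaged 56.3 ± 2.54 FPKM in CmNOR/Cmnor at 39 DAP and 79.9 ± 4.23 FPKM in WT at 36 DAP (log2 fold change −0.50, adjusted p = 1.3e-04).

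Of the 40 genes that the study names by identifier, 5 were higher and 15 lower (11.1% and 10.9% over all genes). Intervals within 2-fold of WT at 36 DAP were held by 21 of the 40, beside 90.4% of all genes tested. They were named on these samples and are not independent evidence. Besides those above, the calmodulin-binding protein 25 gene CalB (MELO3C009728.2) had 77.6, 80.4 and 90 FPKM in CmNOR/Cmnor at 39 DAP, against 248, 251 and 259 FPKM in WT at 36 DAP. It was 3.06-fold lower with no overlap (adjusted p = 5.6e-08). The receptor-like kinase gene RLP (MELO3C016920.2) had 12.3, 14.6 and 16.2 FPKM in CmNOR/Cmnor at 39 DAP, against 47.4, 59.4 and 44.7 FPKM in WT at 36 DAP (3.51-fold lower, adjusted p = 4.2e-08). After storage CalB was lower by 1.33 (adjusted p = 3.4e-06) and RLP by 2.01 (adjusted p = 1.2e-08). The aspartic proteinase gene APN (MELO3C024582.2) had 30.4, 29.2 and 30.9 FPKM in CmNOR/Cmnor, against 20.5, 23.6 and 22.2 FPKM in WT at 36 DAP. Its log2 difference of 0.43 (adjusted p = 0.018) was no longer past the test without CmNOR/Cmnor library 1, at 0.43, or WT library 1, at 0.38.

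Heat shock protein genes were lower in 18 of 56 cases and higher in 5, with a median of −0.14, beside 10.9% lower and 11.1% higher over all genes. Their summed level was 3423, 3196 and 3336 FPKM in CmNOR/Cmnor at 39 DAP, against 9004, 4990 and 11230 FPKM in WT at 36 DAP. No other ripening group of WT or CmNOR/Cmnor averaged above the 3787 FPKM of WT at 39 DAP, so that by this sum WT at 36 DAP was the group apart, with its library 2 the least so. By count, more members were lower than higher without that group too. In CmNOR/Cmnor at 36 DAP against WT at 33 DAP, 15 of 56 were lower and 6 higher, beside 9.44% and 11.8% over all genes. A class I heat shock protein-like gene (MELO3C003195.2, chromosome 8) had 27.4, 22.6 and 28.4 FPKM in CmNOR/Cmnor at 39 DAP, against 485, 140 and 651 FPKM in WT at 36 DAP (16.3-fold lower, adjusted p = 6.4e-09). The part of these genes in the other differences was not tested. Leaving out any of the 6 libraries gave 17 to 21 lower members. An exception was another class I gene, MELO3C020588.2, with 25.9, 34.9 and 29.8 FPKM in CmNOR/Cmnor at 39 DAP, against 16.4, 21.7 and 14.3 FPKM in WT at 36 DAP (log2 fold change 0.77, adjusted p = 2.9e-05). Of 17 dehydrins and late embryogenesis abundant (LEA) proteins, which protect cells from drying, 6 were lower and 2 higher. LEA protein D-34 (MELO3C006530.2) had 2.9, 3.84 and 3.81 FPKM in CmNOR/Cmnor at 39 DAP, against 12.5, 9.37 and 9.7 FPKM in WT at 36 DAP (log2 fold change −1.35, adjusted p = 6.4e-07).

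Sulfate assimilation genes were higher in 8 of 37 cases and lower in 2, beside 11.1% higher and 10.9% lower over all genes. Their sum was 265, 269 and 297 FPKM in CmNOR/Cmnor at 39 DAP, against 197, 177 and 187 FPKM in WT at 36 DAP. The sulfate transporter 3.1-like gene (MELO3C015798.2) had 8.89, 9.6 and 10.5 FPKM in CmNOR/Cmnor at 39 DAP, against 3.33, 3.41 and 3.51 FPKM in WT at 36 DAP (log2 fold change 1.27, adjusted p = 5.8e-07). Like ATP sulfurylase 1 it was also higher after storage, by 1.12 (adjusted p = 1.2e-05). Of 34 aquaporins 3 were higher and 5 lower. Aquaporin NIP2-2 (MELO3C009871.2) had 11.6, 17.6 and 14.5 FPKM in CmNOR/Cmnor at 39 DAP, against 71.5, 81.5 and 81.1 FPKM in WT at 36 DAP (5.35-fold lower, adjusted p = 7.4e-09). PIP2-2-like (MELO3C014241.2) went the other way, with 180, 153 and 170 FPKM in CmNOR/Cmnor at 39 DAP, against 66.8, 67.6 and 86.6 FPKM in WT at 36 DAP (log2 fold change 1.18, adjusted p = 5.0e-07). Against the same shares over all genes, auxin response genes were lower in 15 of 109 cases and higher in 7, genes that the table assigns to KEGG carbon fixation lower in 26 of 106 and higher in 11, and lipoxygenases higher in 3 of 27 and lower in 0, by limma at the adjusted p and at an unadjusted p under 0.05. The carbon fixation list follows that assignment and includes YSL7, whose description names a transporter. Cytosolic ribosomal protein genes were higher in 19 of 170 and lower in 7, and core histone genes higher in 2 of 30 and lower in 2.

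Photosystem and antenna protein genes, which green flesh uses, were lower in 17 of 63 cases and higher in 1, with a median of −0.15, beside 10.9% lower and 11.1% higher over all genes. This count rests on single libraries. It was 11 without CmNOR/Cmnor library 1, 10 without WT library 2 and 8 in a fit of the compared libraries alone. The sum was 16987, 27031 and 20847 FPKM in CmNOR/Cmnor at 39 DAP, against 24190, 34195 and 22368 FPKM in WT at 36 DAP, so that the groups overlapped. The photosystem II 22 kDa protein gene (MELO3C010608.2), of protection from excess light, had 6.6, 14.6 and 11.9 FPKM in CmNOR/Cmnor at 39 DAP, against 31.2, 30.3 and 38.3 FPKM in WT at 36 DAP (log2 fold change −1.56, adjusted p = 3.9e-06).

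**Figure D5:**
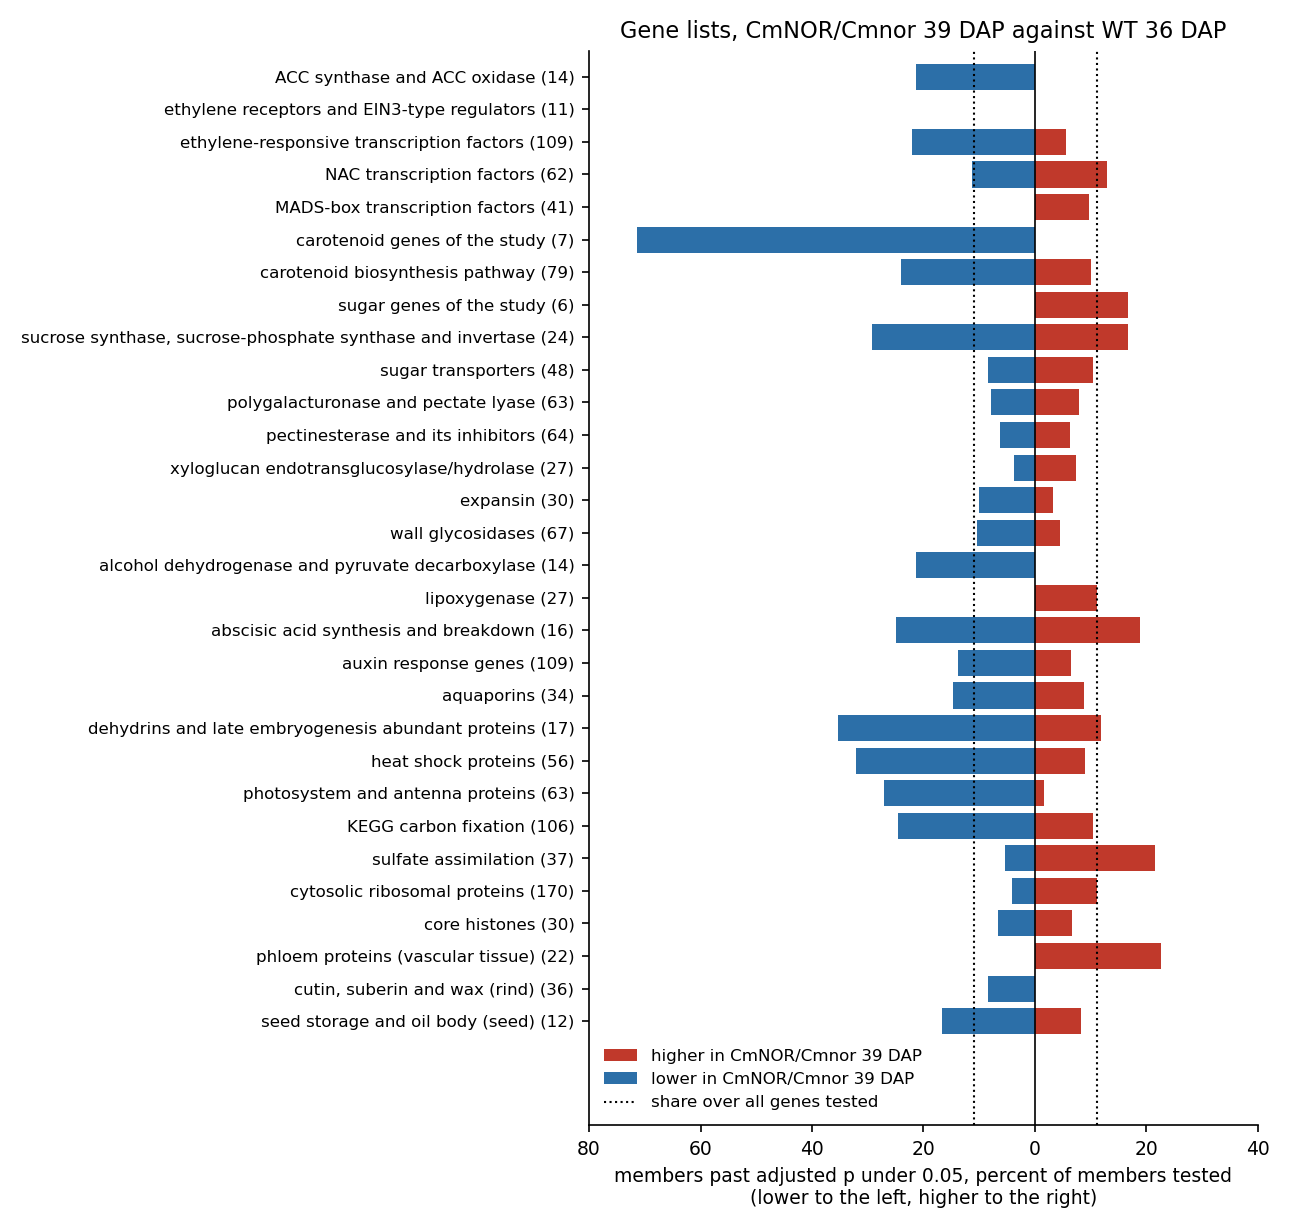
Percent of the tested members of each gene list (number in brackets) past an adjusted p under 0.05, lower in CmNOR/Cmnor at 39 DAP than in WT at 36 DAP to the left (blue) and higher to the right (red), with dotted lines at the share over all genes tested (10.9% and 11.1%). Lists with 6 or more tested members are drawn, and the lists of the study's own genes were chosen on these samples.

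Markers of tissues next to the flesh were checked beside these results. Phloem protein genes were higher in 5 of 22 cases and lower in 0 by limma, with 7 higher and 0 lower at an unadjusted p under 0.05, beside 11.1% higher and 10.9% lower over all genes. Their sum was 213, 181 and 131 FPKM in CmNOR/Cmnor at 39 DAP, against 82.3, 60.4 and 70.3 FPKM in WT at 36 DAP, with 4 members at 0 in all CmNOR/Cmnor libraries and 5 in all WT libraries. The PHLOEM PROTEIN 2-LIKE A1-like gene (MELO3C002874.2) had 87, 81.9 and 54.7 FPKM in CmNOR/Cmnor at 39 DAP, against 17.4, 7.42 and 11.9 FPKM in WT at 36 DAP (6.09-fold higher, adjusted p = 1.4e-07). In bulk flesh, more vascular cells and more of this RNA per cell cannot be told apart. The phloem filament protein gene (MELO3C012701.2) had 44.5, 21.9 and 9.65 FPKM in CmNOR/Cmnor, against 5.45, 2.95 and 3.89 FPKM in WT at 36 DAP, and its call (adjusted p = 0.0075) was lost without CmNOR/Cmnor library 1, at 1.64. Rind genes of cutin, suberin and wax summed to 32.5, 27.3 and 27 FPKM in CmNOR/Cmnor at 39 DAP, against 38.8, 34 and 44.7 FPKM in WT at 36 DAP. Seed storage and oil body genes summed to 83, 95.7 and 85.4 FPKM in CmNOR/Cmnor, against 77, 89 and 77.4 FPKM in WT at 36 DAP. The part of the phloem genes in the other differences was not tested.

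The same offset of 3 days can be read once more, in CmNOR/Cmnor at 36 DAP against WT at 33 DAP, with libraries that the comparison at 39 DAP does not use. There 958 genes (3.85%) were DEGs, 386 (1.55%) higher and 572 (2.3%) lower in CmNOR/Cmnor. Most DEGs at 39 DAP were not DEGs in the same direction at the earlier offset. The shares that follow stand beside 1.55% of all genes higher and 2.3% lower there. Of the 472 genes lower at 39 DAP, 88 (18.6%, or 15.4% of the earlier 572) were lower at the earlier offset and 49 (10.4%, or 12.7% of the earlier 386) were higher. Of the 261 genes higher at 39 DAP, 26 (9.96%, or 6.74% of the earlier 386) were higher and 26 (9.96%, or 4.55% of the earlier 572) lower. Of the 254 genes at the WT 36 DAP level, 62.6% had an interval within 2-fold at the earlier offset, beside 57.4% of the 190 genes at the WT 39 DAP level, 64.9% of the 584 at neither, 62.9% of all 1028 WT stage genes and 85.5% of the genes that averaged 1 FPKM or more. These shares carry no test. ABC transporter B family member 19 was lower by 0.81 at the earlier offset (adjusted p = 8.8e-07) and the NRT1/PTR FAMILY 7.3-like gene by 1.14 (adjusted p = 1.0e-06). PG1 differed by 0.03 (adjusted p = 1), at 293 FPKM in CmNOR/Cmnor at 36 DAP and 287 FPKM in WT at 33 DAP.

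The genes outside the WT range can be read at the earlier offset as well. Of the 28 above it, 11 (39.3%) were DEGs that were higher at the earlier offset and 0 lower by limma, with 22 higher and 1 lower at an unadjusted p under 0.05. Of the 68 below it, 30 (44.1%) were lower and 0 higher by limma, with 50 lower and 1 higher at an unadjusted p under 0.05. Both counts share the WT 33 DAP libraries with the definition of the class, so that they are not independent of it. Cationic amino acid transporter 6 was higher by 1.78 (adjusted p = 2.1e-10) and NAC83-like lower by 1.51 (adjusted p = 1.3e-06), as at 39 DAP.

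The difference between the offsets was tested as a contrast of its own, which equals the step of CmNOR/Cmnor from 36 to 39 DAP minus the step of WT from 33 to 36 DAP. A genotype difference that is the same at both offsets drops out of it. It found 1763 DEGs (7.08%), 784 (3.15%) higher and 979 (3.93%) lower. Photosystem and antenna genes were among the lists that turned. At the earlier offset 34 of 63 were higher in CmNOR/Cmnor and 0 lower by limma, with 42 higher and 1 lower at an unadjusted p under 0.05, while the background was 11.8% and 9.44%. In the contrast of the offsets 38 of 63 were lower and 0 higher by limma, with 39 lower and 4 higher at an unadjusted p under 0.05, beside 11.7% and 10.2% of all genes. Their sum was 36634, 38585 and 36453 FPKM in CmNOR/Cmnor at 36 DAP, against 24672, 25327 and 27604 FPKM in WT at 33 DAP. ACC synthase MELO3C021182.2 was lower by 4.38 at the earlier offset (adjusted p = 1.6e-11) and by 1.31 at the later one, a difference of 3.06 between them (adjusted p = 3.5e-06). The acid invertase-like gene was higher by 0.97 at the earlier offset (adjusted p = 2.8e-04) and lower by 2.49 at the later one, a difference of −3.46 (adjusted p = 2.2e-10).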

How the data were processed

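Flesh RNA was sequenced from TruSeq libraries. The authors aligned clean reads with HISAT2 to melon genome build DHL92 v3.6.1 and deposited FPKM, 1 value per gene and library. The labels also name TopHat2, StringTie and Cufflinks. Tool versions, the counting step and the strand setting were not given in the sources used here. Of the table's lines, 25121 name genes, and 1 line was not used here. Of the identifiers, 1889 are loci outside the annotation. No 2 libraries held identical values. Depth was estimated from genes whose FPKM match whole fragments over the gene's span, 17.7 to 36.9 M per library; FPKM summed to 592372 to 672851.

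Log2(FPKM + 1) was fitted with limma 3.58.1 in R 4.3.3 (trend, all 36 libraries, 12 groups, no covariates, 26.15 degrees of freedom), with Benjamini-Hochberg adjustment over 24901 genes. Means carry the SD of 3 libraries. Folds are ratios of mean FPKM. In 3 against 3 libraries an exact permutation test cannot go below 0.1, so none was run. Tested on simulated data for the comparison at 39 DAP, over 24901 genes, the fit recovered 196 of 200 changed genes. It called 0 of 24701 unchanged ones. The changed genes were well expressed and shifted by more than 2-fold, with independent noise in each library. Recovery of low genes, of changes near the 2-fold threshold and under effects of single libraries was thus not tested.

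The comparison, definitions and gene lists were chosen with earlier results of these data known. Lists came from the table's descriptions, KEGG pathways and the study's text, and stand beside the share over all genes without a set test. Named genes were the highest and lowest DEGs and members of each class with at least 5 FPKM in the higher group, up to 2 highest and 2 lowest called members per list, the 40 genes the study names, and the extremes of the contrast between the offsets; genes without a description were passed over. Alternatives were a pseudocount of 0.1, a filter of 1 FPKM in 3 libraries (17813 genes), upper-quartile and median scaling, a replicate block, the compared libraries alone, single libraries left out, no fold threshold, an interval of 1.5-fold, and WT stage genes from 33 to 39 DAP. Added after the data were seen were single WT 39 DAP libraries left out, WT at 33 DAP, list counts under each alternative, and stored fruits. Sequences were not used here.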

Additional observations from a re-analysis of the deposited data

Results flagged for a closer look

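The contrast between the offsets, CmNOR/Cmnor at 39 DAP over WT at 36 DAP minus CmNOR/Cmnor at 36 DAP over WT at 33 DAP, held 1763 genes past both thresholds, which differed between these pairs of groups by limma. The values of the genes furthest apart follow on the log2 scale, and their causes were not tested. Allene oxide cyclase 1 (MELO3C003015.2), of jasmonate synthesis, differed by 7.19, with 1.47 FPKM in CmNOR/Cmnor at 39 DAP and 0.44 FPKM in WT at 36 DAP, against 0.655 FPKM in CmNOR/Cmnor at 36 DAP and 137 FPKM in WT at 33 DAP. Aquaporin PIP2-3 (MELO3C014239.2) differed by 6.39, with 1.9 and 5.25 FPKM in the later pair and 2.08 and 467 FPKM in the earlier one. The PIP1-4 genes MELO3C000776.2 and MELO3C025165.2, which share a description and may share fragments, differed by 5.72 and 5.67. In the earlier pair they averaged 0.641 and 0.275 FPKM in CmNOR/Cmnor at 36 DAP, against 113 and 90.6 FPKM in WT at 33 DAP, while at 33 DAP CmNOR/Cmnor averaged 125 and 91.6 FPKM. These PIP1-4 genes were thus high at 33 DAP in both genotypes and below 1 FPKM in CmNOR/Cmnor at 36 DAP. In the later pair neither passed the test in the main setting. With a pseudocount of 0.1 they differed there by −1.30 and −1.84. ATP sulfurylase 1 (MELO3C006493.2) differed by 4.20 and aquaporin PIP2-2-like (MELO3C014241.2) by 3.16.

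Lower in this contrast were ERF2 (MELO3C002624.2, annotated ethylene-responsive transcription factor 8) at −4.90 and the class I heat shock protein-like gene (MELO3C003195.2) at −4.18, both highest in WT at 36 DAP. The cinnamoyl-CoA reductase 2-like gene (MELO3C030668.2), of the phenylpropanoid pathway, was at −3.95, with 23.1, 23.1 and 19 FPKM in CmNOR/Cmnor at 39 DAP, against 89.7, 115 and 59 FPKM in WT at 36 DAP. At the earlier offset it was higher in CmNOR/Cmnor, at 65.2 FPKM against 15.2 FPKM in WT. LEA protein D-34 (MELO3C006530.2) was at −2.71. The clock genes GIGANTEA-like (MELO3C030034.2) and adagio protein 3 (MELO3C016660.2) differed by 3.55 and 2.42.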

How the results depend on the processing

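Of 1308 values of 109 named genes under other settings, 1275 kept their side of the threshold, 20 lost and 13 gained a call, and 0 called ones changed direction. With a pseudocount of 0.1, the DEGs numbered 1724 at 39 DAP against WT 36 DAP (784 higher, 940 lower), 1924 at the earlier offset (795, 1129) and 2841 in the contrast of the offsets (1386 higher), with 384 genes at the WT 36 DAP level, 288 at the WT 39 DAP level and 265 outside the WT range. Without a fold threshold these counts were 5481 (2773, 2708), 5282 (2932, 2350), 5441 (2533, 2908), 3067, 2782 and 1045. An interval within 1.5-fold left 117 genes at the WT 36 DAP level and 80 at the WT 39 DAP level, and WT stage genes from 33 to 39 DAP gave 98 of the second kind; the cause of the last was not tested. The photosystem list held 8 lower members in a fit of the compared libraries alone. Leaving out single libraries gave 637 to 872 DEGs (200 to 402 higher, 437 to 506 lower), 908 to 993 at the earlier offset (366 to 413, 541 to 611), 1606 to 1872 for the contrast (629 to 903, 929 to 1019), 225 to 276 genes at the WT 36 DAP level, 154 to 245 at the WT 39 DAP level, 89 to 109 outside the range, and 17 to 21 lower heat shock, 22 to 24 lower ERF, 10 to 24 lower photosystem and 6 to 9 higher sulfate genes. The share of higher genes among DEGs was 35.6%, 39% under upper-quartile and 35.4% under median scaling. Replicate numbers do not pair the samples (same-numbered r of 0.283, 0.0867 and −0.0484 between the groups compared). A replicate block gave 735 DEGs (261 higher, 474 lower), 253 and 189 placed genes, 96 outside the range, 958 at the earlier offset and 1761 for the contrast, and changed 0 calls of named genes. Depth differed between libraries, and values of a few fragments carry little weight.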

Other observations

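Of the circadian clock, 7 genes were picked by name after values had been seen, with no list behind them. At the 2 offsets 6 of the 7 passed the test in opposite directions, and LHY-like passed at the earlier one alone. Over all genes, 22% passed the adjusted p at 39 DAP and 21.2% at the earlier offset, in either direction. The share passing in opposite directions was not counted. GIGANTEA-like MELO3C030034.2, APRR5 and adagio protein 3 were also among the WT risers at the WT 39 DAP level. GIGANTEA-like (MELO3C030034.2) had 50.2, 66.2 and 59 FPKM in CmNOR/Cmnor at 39 DAP, against 21.5, 17.4 and 18.8 FPKM in WT at 36 DAP (log2 fold change 1.55, adjusted p = 2.9e-11). At the earlier offset it was lower by 2 in CmNOR/Cmnor (adjusted p = 8.5e-14). By stage it averaged 112, 22.4 and 58.5 FPKM in CmNOR/Cmnor, against 92.4, 19.3 and 56.5 FPKM in WT at 33, 36 and 39 DAP. A second GIGANTEA-like gene (MELO3C024067.2) had 25.9, 29 and 25.7 FPKM in CmNOR/Cmnor at 39 DAP, against 19.2, 16.6 and 20.1 FPKM in WT at 36 DAP (log2 fold change 0.51, adjusted p = 2.1e-05), and was lower by 0.90 at the earlier offset (adjusted p = 1.7e-09). The pseudo-response regulator APRR5 (MELO3C005921.2) was higher by 1.35 at 39 DAP (adjusted p = 1.2e-09) and lower by 0.93 at the earlier offset (adjusted p = 4.2e-07). Adagio protein 3 (MELO3C016660.2), a blue light receptor, was higher by 1.07 (adjusted p = 5.5e-10) and lower by 1.36 (adjusted p = 2.8e-12). The morning gene REVEILLE 2-like (MELO3C001962.2) was the reverse, lower by 0.68 (adjusted p = 5.5e-05) and higher by 0.75 (adjusted p = 1.4e-05), and REVEILLE 8-like (MELO3C009305.2) was lower by 0.39 (adjusted p = 7.5e-05) and higher by 0.67 (adjusted p = 1.6e-08). For LHY-like (MELO3C022302.2) the difference was −0.25 (adjusted p = 0.17, interval −0.50 to 0.00) and 0.52 (adjusted p = 0.0023). The sources used here do not give the hour of sampling, and its part in the other differences between fruits of different age was not tested.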
